A study of Mus musculus with 24 samples.

Results

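The Hox genes encode homeodomain transcription factors that lie in 4 clusters, Hoxa, Hoxb, Hoxc and Hoxd, and were measured here in 2 neighbouring stretches of the mouse kidney tubule. Members were the genes with a probe set annotated to a single symbol made of Hox, a cluster letter and a paralogue number, each represented by its probe set with the highest mean over the 24 arrays. This gave 33 genes of the 18194 genes with a single-symbol probe set: 9 of the 11 Hoxa genes in the reference annotation, 9 of 10 Hoxb genes, 7 of 9 Hoxc genes and 8 of 9 Hoxd genes. The other genes of the clusters were not analysed here as members. The clusters lie on chromosome 6 (Hoxa), 11 (Hoxb), 15 (Hoxc) and 2 (Hoxd) in GRCm38.p6.

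The 24 arrays fall into 12 groups of 2 pools: distal convoluted tubules with connecting tubules (DCT/CNT) and cortical collecting ducts (CCD), each at zeitgeber time (ZT) 0, 4, 8, 12, 16 and 20 h, where lights go on at ZT0 and off at ZT12. All groups came from male C57BL/6J mice, with no treatment named, on standard chow in a 12 h light and 12 h dark cycle, whose age is not given in the sources used here. Tubules were microdissected from collagenase-treated left kidneys, and each array holds a pool of RNA in equal amounts from 5 animals per time, amplified from 10 ng. Whether the 2 pools of a group, or the 2 segments of a time, share animals is not stated, so p-values measure the spread between these pools, which may be partly technical, and the number of arrays limits the precision. Each sample mixes 2 segments or several cell types, so that a difference between segments cannot separate fewer expressing cells from less RNA per cell.

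In the embryo, Hox genes are switched on in the order in which they lie along a cluster, and genes of the same number in different clusters (paralogues) often share functions. In the mouse, the Hox11 paralogues are needed for the metanephric kidney to form and the Hox10 paralogues for its stroma, and a Hoxb7 promoter is widely used to drive transgenes in the ureteric bud and its derivative, the collecting duct. The distal convoluted tubule forms from the metanephric mesenchyme, whereas the collecting duct forms from the ureteric bud.

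The labels were read against marker genes. Of 5 measured connecting tubule genes, 4 were higher in DCT/CNT, but Atp2b1 was lower (difference -0.45, SE 0.05). The median difference of the 5 was 1.49. Slc12a3, the sodium-chloride cotransporter of the distal convoluted tubule, spanned 8.48 to 12.1 log2 units in DCT/CNT (median 11.3) and was on average 5.49 log2 units higher there than in CCD (SE 0.35, n = 12 and 12 arrays). That wide range among the DCT/CNT pools was not tested for a part in the results below. Aqp2, the water channel of principal cells, was lower in DCT/CNT (difference -2.29, SE 0.05). Markers of other cells also moved with the segment: all 4 smooth muscle genes were higher in DCT/CNT (median difference 1.36), as were 4 of 5 thick ascending limb genes (median 1.25) and 4 of 7 stroma genes (median 0.25; Dcn was lower, with a difference of -1.08), while no proximal tubule gene of 10 was higher and 3 were lower. The list means spanned 6.74 to 8.15 in DCT/CNT and 5.90 to 6.86 in CCD for smooth muscle. They spanned 7.70 to 9.64 in DCT/CNT and 6.23 to 8.94 in CCD for the thick ascending limb, and 6.25 to 6.77 in DCT/CNT and 5.88 to 6.38 in CCD for stroma. Dim signals also read higher in DCT/CNT: of 71 olfactory and vomeronasal receptor genes, which stand here for unexpressed genes, 45 passed the test as higher in DCT/CNT and 3 as lower, with a median difference of 0.34. The 95th percentile of their segment means, 5.62 in DCT/CNT and 4.96 in CCD, served as a detection line, and a gene under it in both segments is called dim below. Of the marker genes in the lists just named, only Lum and Pdgfra, both among the stroma genes called higher, were dim. The values of each array were also less spread in DCT/CNT, with an interquartile range over genes of 3.47 to 3.84 against 4.30 to 4.50 log2 units in CCD.

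Over the 4 clusters, 22 of 33 Hox genes were higher in DCT/CNT and 11 were lower (limma, Benjamini-Hochberg adjusted p under 0.05 over all genes). Among all genes tested the same rule called 30.4% higher and 47.0% lower, so that passing it says little by itself. The median Hox difference was 0.56 log2 units, against -0.13 for the median gene. Without genes under the detection line in both segments, these medians were 0.37 and -0.31. At an adjusted p under 0.05 and over 2-fold, a rule added after the data were seen, 11 Hox genes were higher and 5 were lower, against 2.86% and 4.62% of all genes. All 12 DCT/CNT arrays lay above all 12 CCD arrays for 14 Hox genes (8.43% of all genes) and below them for 6 (19.4% of all genes). In DCT/CNT 23 Hox genes lay over the detection line, and in CCD also 23, of which 21 lay over it in both. Only Hoxa11 and Hoxc4 were over the line in DCT/CNT alone, and only Hoxb2 and Hoxd12 in CCD alone. The dim members were Hoxa2, Hoxa4, Hoxa13, Hoxb1, Hoxc8, Hoxc13, Hoxd1 and Hoxd13. Among the 25 members over the line in either segment, 15 were called higher and 10 lower, against 17.4% and 62.2% of such genes. Over 2-fold they numbered 9 and 5, against 222 and 821 of the 13180 genes over the line. Their arrays did not overlap for 11 higher and 6 lower members, against 533 and 3486 of those genes.

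The calls were arranged by cluster. All 9 Hoxa and all 7 Hoxc members were called higher in DCT/CNT, 7 of 9 Hoxb members were called lower, and the 8 Hoxd members were split 4 and 4. These counts include dim members. Without them all 6 Hoxa and all 5 Hoxc members were called higher, 7 of 8 Hoxb members lower, and the 6 Hoxd members split 3 and 3. Hoxa4, Hoxa13, Hoxd8, Hoxd9 and Hoxd12 changed sign under other scalings of the arrays. Hoxc5 was no longer called under cyclic loess normalisation. The median differences of the members were 0.98, -0.66, 1.44 and 0.05 log2 units for Hoxa, Hoxb, Hoxc and Hoxd, against -0.13 for all genes. Without dim members and genes they were 1.21, -0.83, 1.44 and 0.05, against -0.31. Of the 7 Hoxb members called lower, Hoxb7 was no longer called under any of the 3 other scalings (-0.12 with equal medians, -0.12 with quantile and -0.16 with cyclic loess normalisation), and Hoxb4 was not called under quantile or cyclic loess normalisation (-0.14 under both).

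**Figure D1:**
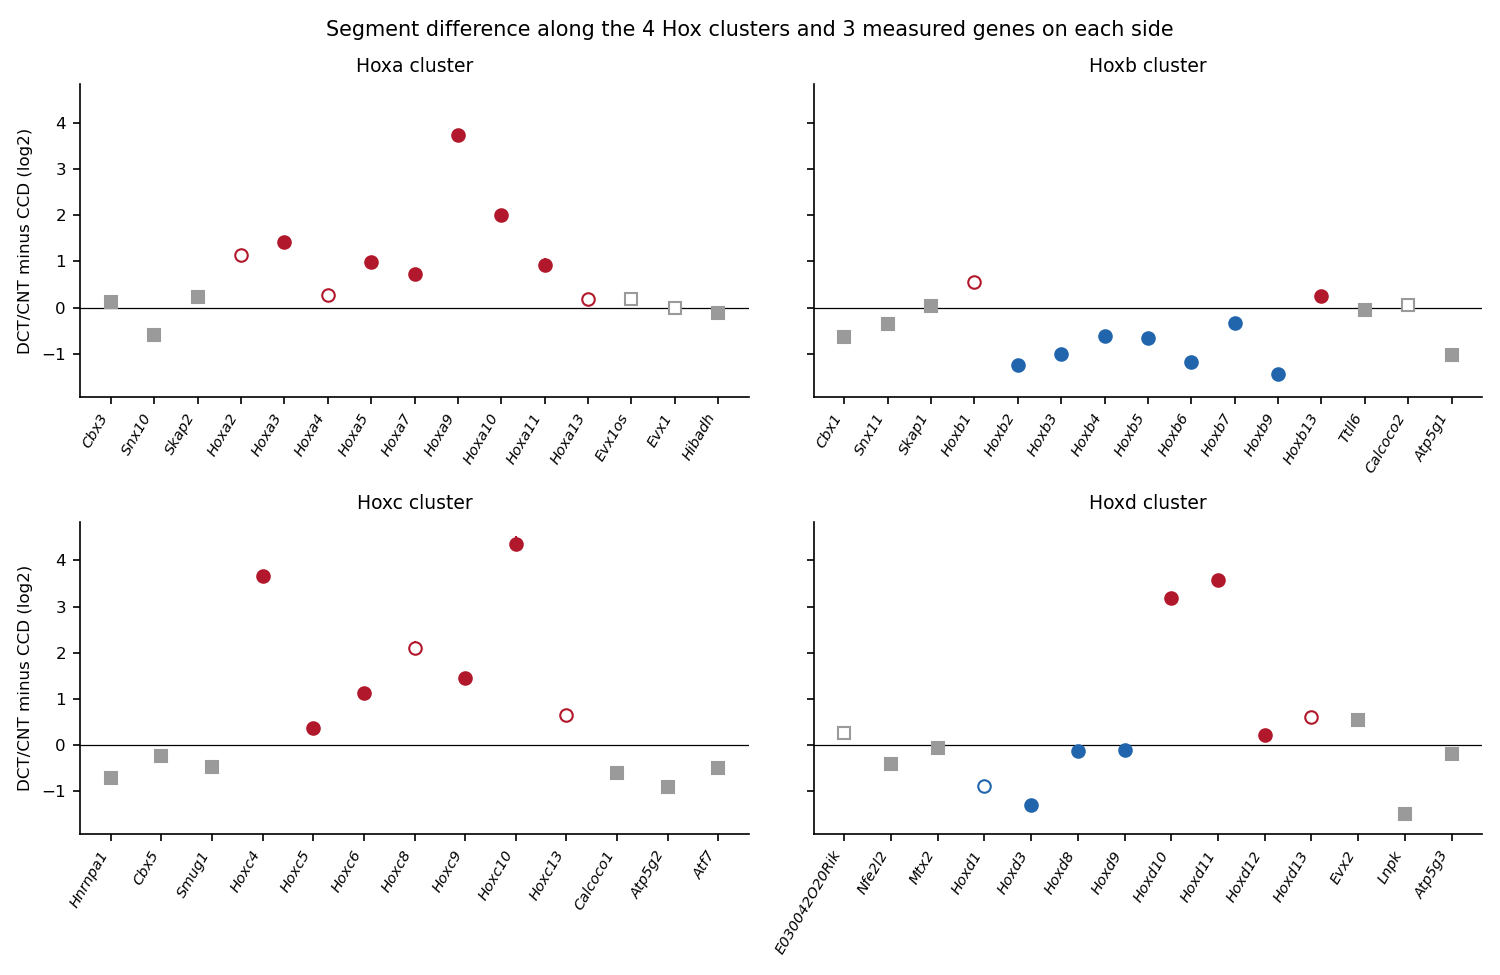
Difference between DCT/CNT and CCD (log2 units, vertical) for the members of each cluster and the 3 nearest measured genes on each side, in chromosomal order (horizontal, order only). Circles are Hox genes, red where called higher and blue where called lower in DCT/CNT; grey squares are flanking genes; open symbols are dim in both segments; bars are the SE and mostly lie within the symbols. As deposited, Hoxa and Hoxc circles lie above 0 (Hoxa4 and Hoxa13 turn under quantile and cyclic loess scaling), Hoxb2 to Hoxb9 lie below 0, and the Hoxd circles step up to 3.20 at Hoxd10 and 3.58 at Hoxd11.

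In the Hoxa cluster, Hoxa9 stood out. Hoxa9, known for its role in limb patterning and blood progenitors, had a lowest, median and highest value of 10.3, 10.5 and 10.8 log2 units in DCT/CNT, against 5.80, 6.87 and 7.30 in CCD. Every DCT/CNT pool lay far above every CCD pool, and 2 CCD pools were lower than the rest. Its difference was 3.74 (SE 0.11, 13.4-fold, adjusted p = 7.44e-13), and its other probe set gave 2.52. Hoxa10, one of the Hox10 paralogues, had 8.42, 8.68 and 8.96 in DCT/CNT, against 6.30, 6.63 and 7.13 in CCD. The groups did not overlap, and the difference was 2.005 (SE 0.09, 4.01-fold, adjusted p = 4.31e-11); the other Hoxa10 probe set was dim. Hoxa3, which patterns the pharynx and neck, had 8.15, 8.53 and 8.72 in DCT/CNT, against 6.42, 7.08 and 7.59 in CCD. The difference was 1.43 (SE 0.10) without overlap, although its other 3 probe sets gave smaller differences of 0.04 to 0.73. Hoxa5, which acts in lung and axial skeleton development, had 6.14, 6.56 and 6.84 in DCT/CNT, against 5.21, 5.56 and 5.88 in CCD. Its difference was 0.98 (SE 0.07) on a probe set whose suffix marks probes that may match related transcripts, and 1.41 on its second probe set. Hoxa7 had 7.20, 7.31 and 7.55 in DCT/CNT, against 6.42, 6.60 and 6.71 in CCD, again without overlap (difference 0.73, SE 0.05). Hoxa11, a Hox11 paralogue, averaged 5.66 in DCT/CNT and 4.73 in CCD, with overlapping arrays (difference 0.93, SE 0.15), close to the detection line in DCT/CNT. Hoxa2, Hoxa4 and Hoxa13, the last a gene of limb and urogenital development, were dim: their means were 4.10, 4.02 and 4.37 in DCT/CNT and 2.95, 3.75 and 4.19 in CCD.

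The Hoxc cluster held the member with the largest difference among the 33. Hoxc10, which with Hoxa10 and Hoxd10 makes up the Hox10 paralogues and specifies lumbar motor neurons, had a lowest, median and highest value of 9.36, 9.93 and 10.2 in DCT/CNT, against 4.36, 5.63 and 6.81 in CCD. Every DCT/CNT pool was far above every CCD pool, and the CCD pools were themselves widely spread, from under the detection line to well over it. The difference was 4.36 (SE 0.17, 20.6-fold, adjusted p = 6.90e-12). Hoxc4 had 6.403, 6.89 and 7.66 in DCT/CNT, against 2.97, 3.39 and 3.57 in CCD. All its CCD arrays lay under the detection line, so that only a bound can be given: set against that line, Hoxc4 was at least 4.12-fold higher in DCT/CNT (adjusted p = 3.60e-13 for the deposited values). Hoxc9, which sets the thoracic identity of motor neurons, had 7.91, 8.16 and 8.47 in DCT/CNT, against 6.42, 6.70 and 6.99 in CCD (difference 1.44, SE 0.07, adjusted p = 1.14e-10). Hoxc6 had 6.99, 7.20 and 7.70 in DCT/CNT, against 5.85, 6.17 and 6.32 in CCD. It differed by 1.12 (SE 0.07) without overlap, and its other probe sets, both dim, by 0.60 and 0.90. Hoxc5 spanned 5.28 to 6.04 in DCT/CNT and 4.99 to 5.61 in CCD, which overlap (difference 0.37, SE 0.07), and its other probe sets gave 0.83 and 0.74. The difference of 0.37 is near the median of 0.34 among the olfactory and vomeronasal receptor genes. Its call was lost under cyclic loess normalisation and with a smooth muscle covariate. Hoxc8 and Hoxc13, the second known from hair and nails, were dim: Hoxc8 averaged 5.49 in DCT/CNT, just under the line there, and 3.39 in CCD, and Hoxc13 averaged 3.85 in DCT/CNT and 3.21 in CCD.

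**Figure D2:**
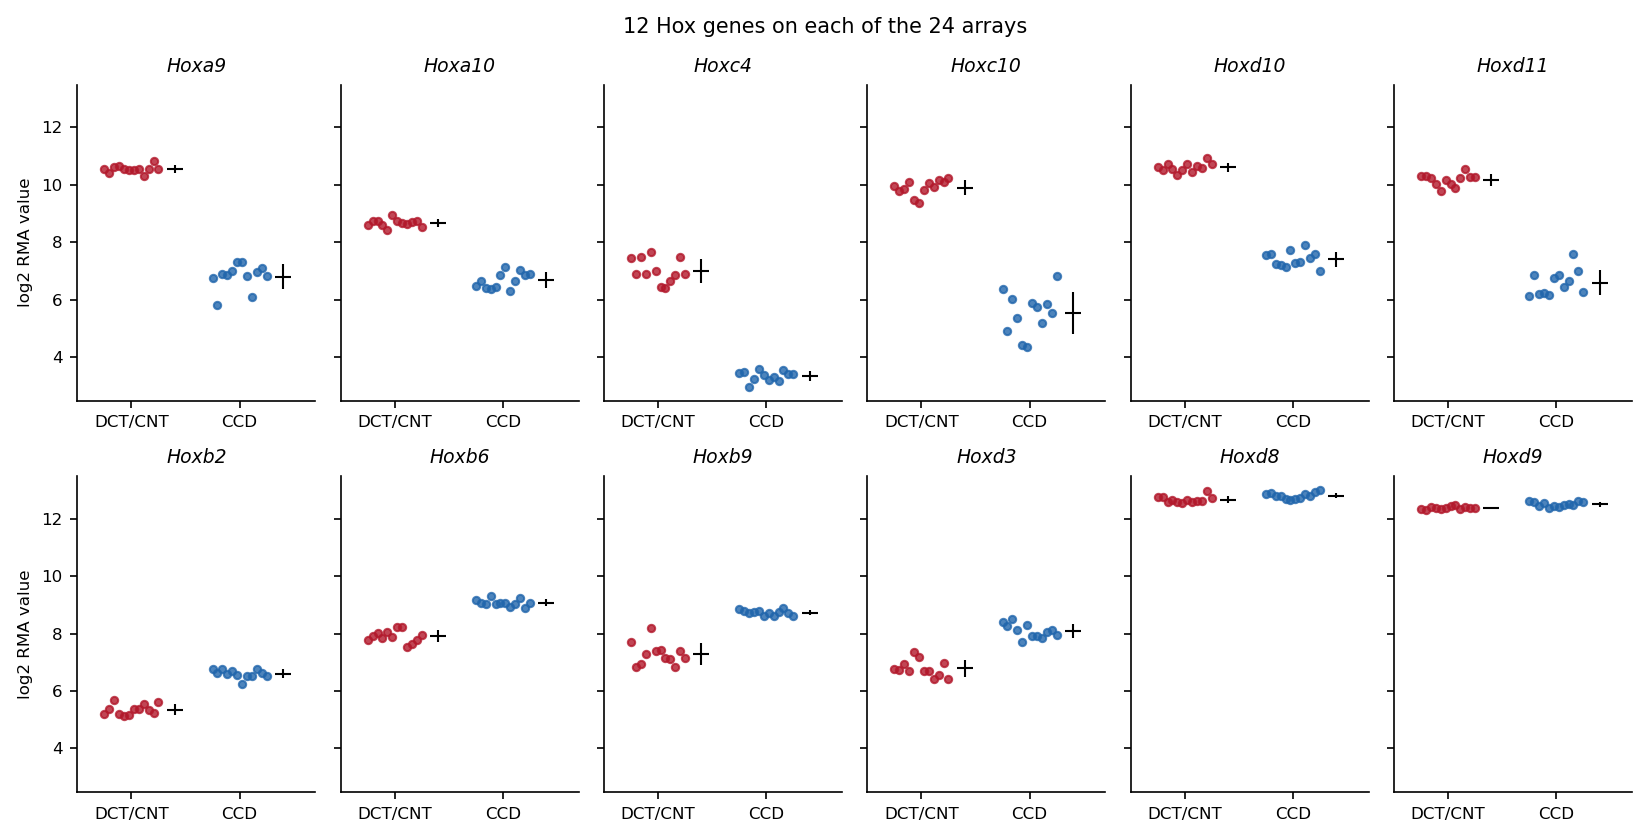
The log2 RMA value (vertical) of 12 Hox genes on each of the 12 DCT/CNT arrays (red, left) and 12 CCD arrays (blue, right), with points in order of zeitgeber time from left to right and the mean and SD beside them in black. The upper row shows 6 genes whose DCT/CNT points all lie above the CCD points; in the lower row the DCT/CNT points lie below for Hoxb2, Hoxb6, Hoxb9 and Hoxd3, and those of Hoxd8 and Hoxd9 overlap with CCD.

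The Hoxb cluster went the other way from Hoxb2 to Hoxb9. Hoxb9 had a lowest, median and highest value of 6.83, 7.21 and 8.20 in DCT/CNT, against 8.59, 8.74 and 8.87 in CCD. The 12 CCD pools were close together (SD 0.09) and the DCT/CNT pools were not (SD 0.39). The difference was -1.45 (SE 0.10, 2.73-fold higher in CCD, adjusted p = 4.43e-09). Hoxb6 had 7.54, 7.88 and 8.24 in DCT/CNT, against 8.90, 9.05 and 9.32 in CCD (difference -1.17, SE 0.05, adjusted p = 2.19e-11). Hoxb2, which acts in the hindbrain, had 5.12, 5.36 and 5.70 in DCT/CNT, against 6.24, 6.60 and 6.78 in CCD (difference -1.24, SE 0.07, adjusted p = 3.01e-10). Its DCT/CNT mean lay under the detection line there, and set against that line Hoxb2 was at least 1.97-fold higher in CCD. Hoxb3 had 7.77, 8.15 and 8.59 in DCT/CNT, against 8.79, 9.10 and 9.38 in CCD. It differed by -1.002 (SE 0.08) and by -0.88 on its second probe set. Hoxb5 had 9.11, 9.31 and 9.55 in DCT/CNT, against 9.76, 9.95 and 10.2 in CCD, again without overlap (difference -0.66, SE 0.07). Hoxb4, known for its effect on blood stem cells, spanned 9.13 to 9.83 in DCT/CNT and 9.72 to 10.2 in CCD (difference -0.61, SE 0.08). Its second probe set went the other way at 0.17. Hoxb7, the gene whose promoter marks the ureteric bud in transgenic mice, differed least among these 7: it averaged 6.675 in DCT/CNT and 7.003 in CCD (difference -0.33, SE 0.12, adjusted p = 0.0220), and it lost the call in 9 of 42 alternatives. A further probe set annotated to both Hoxb8 and Hoxb7 differed by -0.26. At one end of the cluster Hoxb13, known from the prostate, spanned 5.79 to 6.36 in DCT/CNT and 5.62 to 6.10 in CCD (difference 0.24, SE 0.06). At the other end Hoxb1, a hindbrain gene, was dim, with means of 4.15 in DCT/CNT and 3.59 in CCD.

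The Hoxd cluster changed direction along its length. Hoxd3 had 6.41, 6.73 and 7.37 in DCT/CNT, against 7.71, 8.09 and 8.49 in CCD (difference -1.31, SE 0.08, adjusted p = 6.97e-10), and 2 probe sets annotated to both Hoxd4 and Hoxd3 gave -1.25 and -0.34. Hoxd8 averaged 12.7 in DCT/CNT and 12.8 in CCD (difference -0.14, SE 0.04). A second Hoxd8 probe set gave -0.33 (SE 0.04) as deposited, with a highest DCT/CNT value of 12.5870 just under the lowest CCD value of 12.5885. Hoxd9 averaged 12.4 in DCT/CNT and 12.5 in CCD (difference -0.12, SE 0.03). The differences of -0.14 and -0.12 passed the test, but they are the size of the median gene's own difference of -0.13. They turned positive when the arrays were scaled in other ways, to 0.07, 0.09 and 0.14 for Hoxd8 and to 0.09, 0.14 and 0.18 for Hoxd9 under equal medians, quantile and cyclic loess scaling. The next gene, Hoxd10, had a lowest, median and highest value of 10.3, 10.6 and 10.9 in DCT/CNT, against 6.99, 7.37 and 7.88 in CCD. Hoxd11, a Hox11 paralogue, had 9.79, 10.2 and 10.5 in DCT/CNT, against 6.13, 6.54 and 7.58 in CCD. No CCD pool came near a DCT/CNT pool for either gene, with differences of 3.20 (SE 0.08, 9.16-fold, adjusted p = 2.42e-13) for Hoxd10 and 3.58 (SE 0.13, 12.0-fold, adjusted p = 3.10e-12) for Hoxd11. Beyond them, Hoxd12, a limb gene, spanned 4.98 to 5.59 in DCT/CNT and 4.85 to 5.26 in CCD. It differed by 0.21 (SE 0.06) as deposited and by -0.01 and -0.04 under quantile and cyclic loess scaling. Hoxd13, which patterns the digits, and Hoxd1 lie at the ends of the cluster and were dim. Hoxd13 averaged 4.45 in DCT/CNT and 3.84 in CCD, and Hoxd1 averaged 2.98 in DCT/CNT and 3.88 in CCD.

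The RefSeq promoter windows (GRCm38.p6, 250 bases before to 50 after a start) on each side of the step between Hoxd9 and Hoxd10 are printed here, because these neighbours differ so much in their segment difference. Capitals mark CACGTG, an E-box that clock factors among others can bind, and TGATTNAT or its reverse complement, the joint site of Hox and Pbx proteins.
Hoxd9, chr2:74697513-74697812, + strand: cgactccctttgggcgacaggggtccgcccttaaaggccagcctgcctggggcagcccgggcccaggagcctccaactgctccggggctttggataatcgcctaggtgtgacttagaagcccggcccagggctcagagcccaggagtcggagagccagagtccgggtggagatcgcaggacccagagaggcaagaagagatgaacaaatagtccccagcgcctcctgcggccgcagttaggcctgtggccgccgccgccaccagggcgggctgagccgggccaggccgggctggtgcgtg
Hoxd10, chr2:74691641-74691940, + strand: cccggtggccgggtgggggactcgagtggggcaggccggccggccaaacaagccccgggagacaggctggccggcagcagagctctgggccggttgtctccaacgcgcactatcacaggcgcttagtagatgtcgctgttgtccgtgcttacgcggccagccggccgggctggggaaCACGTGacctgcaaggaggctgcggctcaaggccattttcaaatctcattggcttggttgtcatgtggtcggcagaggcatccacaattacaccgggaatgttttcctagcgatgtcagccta
Hoxd11, chr2:74679308-74679607, + strand: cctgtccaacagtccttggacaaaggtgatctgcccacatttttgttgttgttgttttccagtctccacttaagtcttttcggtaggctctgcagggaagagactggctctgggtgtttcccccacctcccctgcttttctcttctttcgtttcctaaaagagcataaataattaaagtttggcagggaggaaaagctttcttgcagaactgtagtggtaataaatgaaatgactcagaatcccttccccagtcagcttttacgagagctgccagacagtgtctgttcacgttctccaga
Hoxd11, chr2:74682073-74682372, + strand: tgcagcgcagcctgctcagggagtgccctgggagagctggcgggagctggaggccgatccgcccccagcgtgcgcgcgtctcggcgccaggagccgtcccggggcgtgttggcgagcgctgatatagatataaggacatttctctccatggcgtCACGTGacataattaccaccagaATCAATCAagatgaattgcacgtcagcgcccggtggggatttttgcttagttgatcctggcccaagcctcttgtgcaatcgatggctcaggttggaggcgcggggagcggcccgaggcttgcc
The Hoxd9 window holds neither motif, the Hoxd10 window holds CACGTG, and of the 2 Hoxd11 windows the first holds neither and the second holds both. The table of promoters held 21 windows for 19 of the 33 members. CACGTG, read on both strands, was in 4 of the 21 windows (19.0%, against 7.15% of all 32851), and TGATTNAT in 2 (9.52%, against 3.22%). The other CACGTG windows belong to Hoxd1 and Hoxd13, both dim, and the other TGATTNAT window to the dim Hoxa2. The windows of Hoxa9, Hoxa10 and Hoxc4, which were all over 2-fold higher in DCT/CNT, hold neither motif. The median number of CpG dinucleotides was 15 in the Hox windows and 7 in all windows. A match is a run of letters and not a site shown to be bound.

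Read by paralogue number, the direction was shared in only some groups. All 3 Hox10 members (Hoxa10, Hoxc10 and Hoxd10) were over 2-fold higher in DCT/CNT without overlap, and both Hox11 members (Hoxa11 and Hoxd11) were higher. The Hox9 paralogues did not share a direction: Hoxa9 and Hoxc9 differed by 3.74 and 1.44, Hoxb9 by -1.45, and Hoxd9 by -0.12 as deposited but by 0.09 to 0.18 under the other scalings. Neither did the Hox3 paralogues, with 1.43 for Hoxa3, -1.002 for Hoxb3 and -1.31 for Hoxd3. In the Hox6 group Hoxc6 and Hoxb6 differed by 1.12 and -1.17. All 4 Hox13 members were called higher as deposited, but only Hoxb13 was over the line, and Hoxa13 turned under quantile and cyclic loess scaling.

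The genes beside the clusters were read in the same way. Of the 24 nearest measured genes on the sides of the clusters, 4 were called higher in DCT/CNT and 14 lower, with differences from -1.51 to 0.54. Among all genes 30.4% were called higher and 47.0% lower, and among genes over the line in either segment 17.4% and 62.2%, so that these counts are no result about the flanks. All 6 genes beside the Hoxc cluster were lower in DCT/CNT as deposited (-0.91 to -0.24, or -0.78 to -0.12 relative to the median gene). Their values under the other scalings are not given. Evx2, the homeobox gene next to Hoxd13, was 0.54 higher (SE 0.07), and Lnpk beyond it was lower (difference -1.51, SE 0.11). Antisense and overlapping transcripts were represented by Hoxb5os (0.21), Hoxd3os1 (-0.12 and -0.56 on 2 probe sets) and Hoxa11os (dim).

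The scaling of the arrays moved the median gene by more than 0.1 log2 units, so differences are also given relative to it: -0.13 as deposited, 0.08 with equal array medians, 0.01 after quantile and 0.00 after cyclic loess normalisation. Relative to the median gene, Hoxc10 differed by 4.49, Hoxa9 by 3.86, Hoxd11 by 3.70 and Hoxd10 by 3.32, and at the other end Hoxb9 by -1.32 and Hoxd3 by -1.18. Under all 42 alternatives, of which 24 left out 1 array each, 16 members kept both direction and call, 11 of them higher and 5 lower in DCT/CNT. The dim Hoxa2, Hoxc8 and Hoxc13 also kept theirs, under the 41 alternatives that could be run on them. The 5 lower ones were Hoxb2, Hoxb3, Hoxb5, Hoxb6 and Hoxd3. Over those alternatives the difference lay between 3.83 and 4.73 for Hoxc10, 3.13 and 4.21 for Hoxa9, 3.17 and 4.03 for Hoxd11, and 2.92 and 3.68 for Hoxd10. The direction of Hoxa4, Hoxa13, Hoxd8, Hoxd9 and Hoxd12 turned under at least 1 of the scalings.

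**Figure D3:**
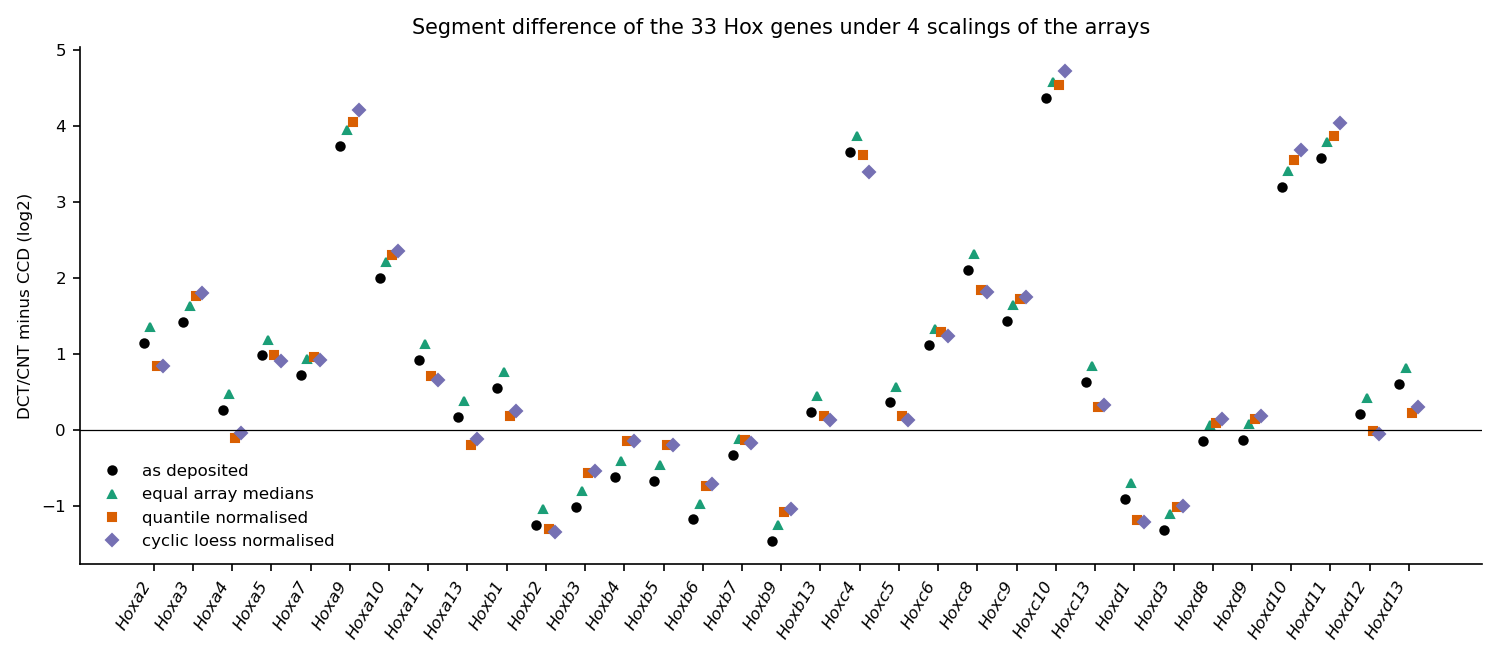
Difference between DCT/CNT and CCD (log2 units, vertical) of each of the 33 Hox genes as deposited (black circles) and after bringing the arrays to equal medians (green triangles), quantile (orange squares) and cyclic loess normalisation (violet diamonds). The 4 symbols of a gene stay on 1 side of 0 except for Hoxa4, Hoxa13, Hoxd8, Hoxd9 and Hoxd12, all within 0.5 of 0.

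The smooth muscle list moved with the segment, so the fit was repeated with that list's array mean as a covariate, a fit that was chosen once the values were known. The number of Hox genes called was then 14 higher and 5 lower, and the number over 2-fold was 12 and 4. In that fit Hoxc10 differed by 3.83 (adjusted p = 0.00195), Hoxd10 by 2.92 (adjusted p = 0.000176), Hoxd11 by 3.93 (adjusted p = 0.000381) and Hoxa9 by 4.01 (adjusted p = 0.000202) with limma, Benjamini-Hochberg adjusted. Hoxb9 lost its call (difference -0.91, adjusted p = 0.114), and so did Hoxa11 (1.21, adjusted p = 0.157). With a mean per group in the fit, the slope of the covariate rests on the 2 pools within each group. The list mean itself differs between the segments, so the fit loses precision, and a lost call can come from that alone. A part of smooth muscle in the differences was not tested.

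Proteins that act with Hox proteins or keep Hox chromatin on or off were read from lists of textbook genes. Of 8 measured TALE homeodomain cofactors, which bind DNA together with Hox proteins, 6 were lower in DCT/CNT and 1, the dim Meis1, was higher. Pbx3 averaged 6.12 in DCT/CNT and 7.30 in CCD (difference -1.18, SE 0.06), and Pbx2 differed by -0.69. Of 17 Polycomb group genes, whose complexes keep Hox genes silent, 12 were lower in DCT/CNT and 1, Cbx8, was higher (0.31); the histone methyltransferase Ezh1 differed by -0.99. On the Trithorax side, which keeps Hox genes active, 11 of 13 were lower and none was higher, with Kmt2a at -1.32 and the H3K27 demethylase Kdm6b at -1.24. Among all genes 47.0% were called lower, and among those over the line in either segment 62.2%, so that these counts stand beside a high background. The medians of the 3 lists were -0.25, -0.60 and -0.59, against -0.13 over all genes and -0.31 over genes above the line. All these list values are as deposited, and none is given under the other scalings, which can move a difference of this size. Hoxb4, for example, went from -0.61 as deposited to -0.14 under quantile and cyclic loess normalisation. Caudal-type and ParaHox genes, which include regulators of Hox genes in the embryo, were dim in all 6 cases, and 2 of them (Cdx2 and Gsx2) were called higher. Gmnn, a geminin gene whose protein can bind Hox proteins, was not called (-0.11, adjusted p = 0.0904 by limma). Among 6 measured partners and targets of Hox11 in the early kidney, the 5 called higher (Eya1, Six2, Gdnf, Osr1 and Wt1) were all dim, and Itga8 was not called (-0.14).

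Over the day, no Hox gene passed the test for a 24 h rhythm. In the cosinor fit (limma, adjusted p under 0.05) 0 of 33 were called in DCT/CNT (6.57% of all genes), 0 in CCD (2.47% of all genes) and 0 for a difference in rhythm between segments (0.0110% of all genes). At an unadjusted p under 0.05 there were 7, 4 and 3 Hox genes, against 24.5%, 14.2% and 8.89% of all genes. Amplitudes, meaning half-swings on the log2 scale, had a median of 0.14 in DCT/CNT and 0.11 in CCD among Hox genes, against 0.13 and 0.10 among all genes.

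Hoxd8 came closest among members over the detection line. Its 2 DCT/CNT pools had 12.59 and 12.54 at ZT8, the lowest time mean, and 12.97 and 12.71 at ZT20, the highest. In CCD the pools had 12.69 and 12.65 at ZT8 and 12.92 and 12.98 at ZT20, again the lowest and the highest time. The fitted amplitude was 0.12 (SE 0.03, adjusted p = 0.0777, peak at ZT 21.2 h) in DCT/CNT and 0.13 (SE 0.03, adjusted p = 0.0961, peak at ZT 21.1 h) in CCD, both from limma. The call was gained in DCT/CNT when only genes over the line were tested (adjusted p = 0.0467). In CCD it was gained with the mean of the probe sets of each gene (adjusted p = 0.0188), with array weights (adjusted p = 0.0291) and without the first DCT/CNT pool at ZT20 (adjusted p = 0.0373). Hoxd9 had an amplitude of 0.11 in CCD (adjusted p = 0.114) and 0.03 in DCT/CNT (adjusted p = 0.716), and the difference between the segments was not called (adjusted p = 0.451). The dim Hoxa13 had an amplitude of 0.26 in DCT/CNT (SE 0.07, adjusted p = 0.0504, peak at ZT 15.0 h) and was called in 5 alternatives. Hoxc10 had the widest amplitude of the 33 in CCD, 0.53 (adjusted p = 0.314), where its pools of the same time differed with an SD of 0.63.

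**Figure D4:**
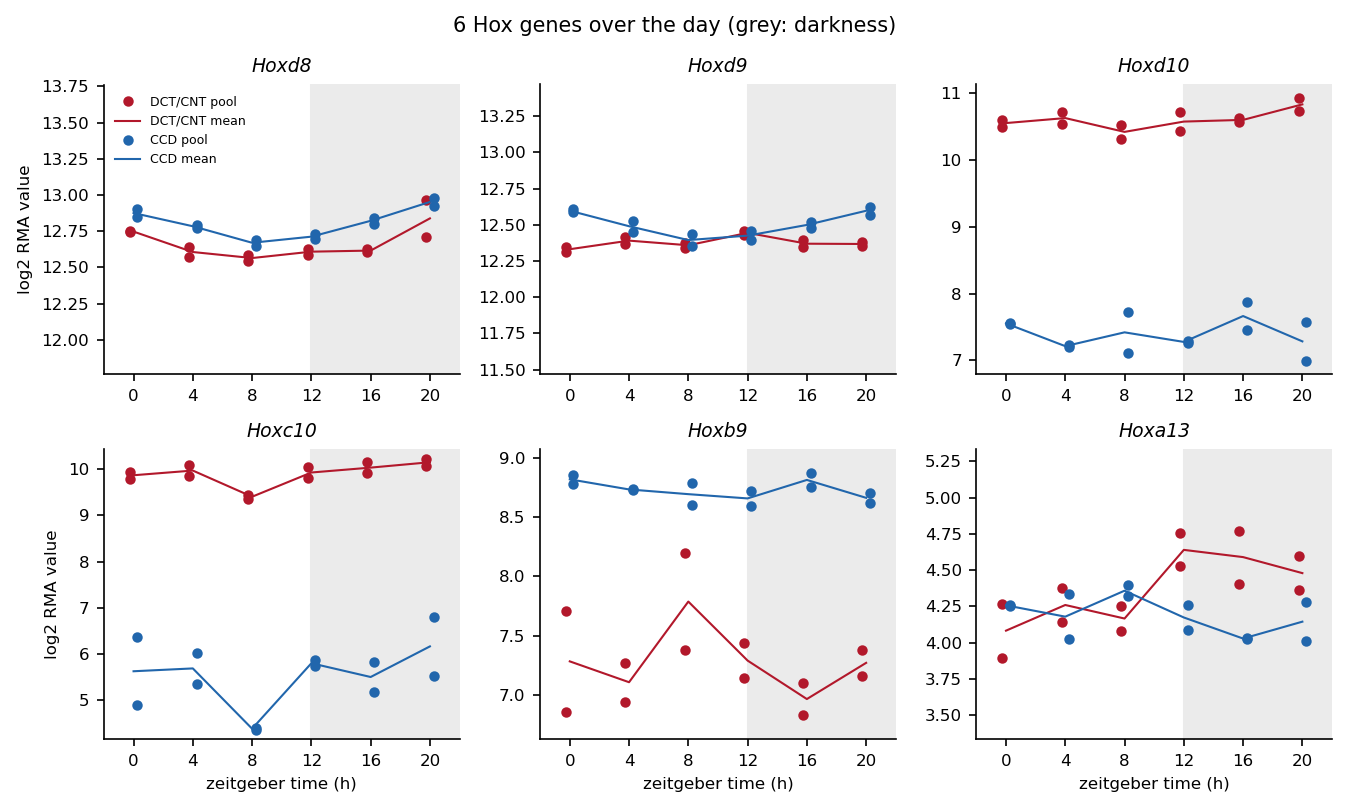
The log2 RMA value (vertical) of 6 Hox genes by zeitgeber time in h (horizontal), with a point per pool and a line through the means of the 2 pools, DCT/CNT in red and CCD in blue; grey marks darkness. Each panel has its own vertical range. Hoxd8 is lowest at ZT8 and highest at ZT20 in both segments; in Hoxd10, Hoxc10 and Hoxb9 the points of the segments stay apart at all 6 times.

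The segment differences were also read at single times, and not all held at each of them. For Hoxb7, both DCT/CNT pools lay below both CCD pools at only 4 of the 6 times. Both DCT/CNT pools lay above both CCD pools at all 6 times for 15 Hox genes (12.8% of all genes) and below them at all 6 for 7 (28.4% of all genes). Without the dim members these counts were 12 and 7, against 834 and 5080 of the 13180 genes over the line in either segment. For Hoxb9 the nearest approach was at ZT8, where the DCT/CNT pools had 8.20 and 7.38 and the CCD pools 8.79 and 8.60. For Hoxc10 the CCD mean was lowest at ZT8 (4.38) and highest at ZT20 (6.17), while the DCT/CNT mean was lowest at ZT8 (9.41) and highest at ZT20 (10.2).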

How the data were processed

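Expression was measured on 24 one-colour arrays of 45101 probe sets. The deposited values are log2 values made by the authors with RMA, per the submitters' processing notes; the RMA software, its settings and whether both segments were normalised together are not given in the sources used here. RMA gives no detection call. Probe sets were named through the platform annotation: 34958 had 1 symbol, 932 several and 9211 none. Values were used as deposited, with 1 probe set per gene (highest mean over all arrays). limma 3.58.1 in R 4.3.3 was fitted to all 18194 genes, with a mean per group (12 residual degrees of freedom) for the segment difference, DCT/CNT minus CCD, and a 24 h cosinor per segment (18 residual degrees of freedom) for rhythm. P-values were Benjamini-Hochberg adjusted over all genes and called under 0.05. The fits were tested on simulated data. The plan was to give values in full for members called or over the detection line. Every member was called, but dim members are given by their means, and some others by means or ranges. From each other list the plan took at most 4 genes, those of lowest adjusted p. Further genes of those lists, the flanking genes and markers were named after their values were seen. Members and lists were chosen with earlier results of these data known. Pool numbers were not used to pair samples in the main fits. Same-time deviations of the 2 segments correlated at -0.03 to 0.09 over genes, which cannot show whether the segments share animals.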

Additional observations from a re-analysis of the deposited data

How the results depend on the processing

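Pools come without individual animals, and the deposited scale has no detection call, so dim members carry no weight and signal over background limits them. The Hox counts kept within 1.5 times of 22 higher and 11 lower, and of 11 and 5 over 2-fold, in all alternatives but these: with cyclic loess scaling 7 were called lower, 3 were over 2-fold lower with equal medians and with cyclic loess, and with the smooth muscle covariate 14 were higher and 5 lower. The differences of Hoxd8 (0.071, 0.091 and 0.14) and Hoxd9 (0.086, 0.14 and 0.18) turned positive with equal medians, quantile and cyclic loess scaling, and Hoxd9 was 0.0021 relative to the median gene. Hoxa4 (-0.098 and -0.031), Hoxa13 (-0.19 and -0.12) and Hoxd12 (-0.011 and -0.043) turned negative with quantile and cyclic loess scaling. The cause was not tested. Leaving out each array in turn gave 20 to 22 Hox genes higher, 11 lower, 11 to 12 and 4 to 5 over 2-fold, and 0 to 1 rhythmic in each segment; Hoxa4 lost its call in 14 of 24 omissions and Hoxa13 in 6. A rhythm call was gained by 1 Hox gene in DCT/CNT with genes over the line, with the mean of probe sets and without ZT4, and by 1 in CCD with the mean of probe sets and with array weights. Hoxa13 was called in DCT/CNT with the mean of probe sets (adjusted p = 0.0495), without ZT4 (0.0407) and without 1 pool of DCT/CNT ZT4 (0.0257), DCT/CNT ZT16 (0.0341) or CCD ZT4 (0.0408), and Hoxd3 in DCT/CNT without 1 pool of DCT/CNT ZT20 (0.0276), all from limma.

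Over all genes, 5522 were higher and 8553 lower; leaving out arrays gave 5360 to 5550 and 8381 to 8563. Genes over the line gave 2306 higher, the proximal tubule and thick ascending limb covariates 3345, and the smooth muscle covariate 1748 higher and 3658 lower. Rhythm was called for 1195 genes in DCT/CNT, 449 in CCD and 2 for the difference, and for 818 to 1329, 242 to 477 and 2 to 4 leaving out arrays. It was called for 748 and 819 with array weights, 640 and 281 with the proximal tubule and thick ascending limb covariates, 450 and 117 with an F test over group means, and 226 in DCT/CNT fitted alone. Leaving out ZT0, 4, 8, 12, 16 and 20 gave 659, 565, 745, 594, 676 and 788 in DCT/CNT and 156, 180, 132, 181, 221 and 255 in CCD. The rhythm difference was called for 1 gene with quantile scaling and without ZT0, 8, 12 or 20, for 4 with the mean of probe sets and for 5 with the smooth muscle covariate. With 90th and 99th percentile lines, 26 and 16 Hox genes lay over the line in DCT/CNT and 23 and 17 in CCD. The pool number as a replicate block gave 22 Hox genes higher and 11 lower, 0 rhythmic, and 5528 and 8543 of all genes, and changed no call of a Hox gene.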
